A study of Homo sapiens with 4 samples.

Results

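The 8 ligand and 2 antagonist genes of the transforming growth factor beta (TGF-beta) family described here are TGFB1, TGFB2, TGFB3, INHBA, INHBB, BMP2, BMP4, BMP6, GREM1 and NOG. They were chosen by name as 10 of 19517 measured protein-coding genes, and each was viewed over its annotated span in hg19 with 100 kb either side. Calls, means and percentiles are for the span alone unless a wider window, a flank or a segment is named. The cells were IMR90, a line of human lung fibroblasts grown in medium with serum, with no treatment named. DNA bound to the histone variant macroH2A1 was collected with an antibody and sequenced (ChIP-seq) in 2 replicates, beside 2 inputs of unselected chromatin. The labels do not say whether the replicates were separate cultures, so the spread between them may be technical. There is 1 group of ChIP samples, 1 cell line and no second condition, so every value is a description with the spread between the 2 replicates, and no comparison between groups could be made. The assay measures chromatin and not RNA, so neither the fibroblast label nor the activity of any gene could be checked here.

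TGF-beta, activin and bone morphogenetic protein (BMP) ligands are secreted dimers that join pairs of serine/threonine kinase receptors, which then phosphorylate SMAD transcription factors. Noggin, from NOG, and gremlin, from GREM1, bind BMP ligands outside the cell and keep them from their receptors. In lung fibroblasts TGF-beta is known as the main signal for matrix production. MacroH2A1 is a form of histone H2A with a large additional macro domain, known from the inactive X chromosome and from broad repressed domains, and also found at some genes that can be activated.

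Each replicate was deposited as a segmentation of the genome in which every segment carries 1 value, the log2 ratio of ChIP over input. Segments with a ratio above 0 and a −log10 p of 2 or more were taken as enriched. A gene was called enriched when at least 50% of its assayed bases lay in enriched segments of both replicates. A gene shorter than its segment takes the value of that whole segment, so short peaks or dips cannot be seen. Replicate 1 was divided into 46951 segments with a median length of 27.4 kb, and replicate 2 into 25583 with a median of 53.7 kb. The depth behind these ratios is unknown, since no read numbers come with them.

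The sequences just before the start sites show how unlike these genes are at the promoter. Of the 10 genes, 8 had an entry in the RefSeq promoter table (GRCh38.p14), and each was matched to 1 place in hg19. BMP2 and NOG had none. The 5 shown are the 250 bases before the start site of genes that the results below turn on: GREM1 and INHBA, whose start sites lay in low segments within 10 kb of an enriched domain, INHBB and BMP6, which were enriched, and TGFB1, the lowest. Capitals mark the GC box letters GGGCGG or CCGCCC and the TATA box letters TATAAA or TTTATA, searched on both strands with overlaps counted.
GREM1 (chr15:33009955-33010204, + strand): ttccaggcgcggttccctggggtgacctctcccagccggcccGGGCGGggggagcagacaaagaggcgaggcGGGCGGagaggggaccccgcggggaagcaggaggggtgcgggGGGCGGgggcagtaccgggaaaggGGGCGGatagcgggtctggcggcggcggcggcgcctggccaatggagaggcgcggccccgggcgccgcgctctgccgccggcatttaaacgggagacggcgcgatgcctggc
INHBA (chr7:41742689-41742938, - strand): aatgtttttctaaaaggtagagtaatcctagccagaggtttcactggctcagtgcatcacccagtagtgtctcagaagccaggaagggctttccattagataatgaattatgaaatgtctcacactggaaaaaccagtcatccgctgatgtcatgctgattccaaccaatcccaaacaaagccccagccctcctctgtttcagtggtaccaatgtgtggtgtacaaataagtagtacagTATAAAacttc
INHBB (chr2:121103462-121103711, + strand): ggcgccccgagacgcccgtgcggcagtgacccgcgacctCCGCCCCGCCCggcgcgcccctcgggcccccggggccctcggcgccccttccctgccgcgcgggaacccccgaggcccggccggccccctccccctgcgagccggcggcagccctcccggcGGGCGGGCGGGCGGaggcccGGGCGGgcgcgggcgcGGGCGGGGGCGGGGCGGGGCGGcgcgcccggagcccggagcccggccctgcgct
BMP6 (chr6:7726082-7726331, + strand): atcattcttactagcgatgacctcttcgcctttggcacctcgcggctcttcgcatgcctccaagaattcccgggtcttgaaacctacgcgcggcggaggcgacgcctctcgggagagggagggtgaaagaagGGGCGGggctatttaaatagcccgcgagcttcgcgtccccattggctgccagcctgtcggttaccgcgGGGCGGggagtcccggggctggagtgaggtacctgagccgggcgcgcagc
TGFB1 (chr19:41859828-41860077, - strand): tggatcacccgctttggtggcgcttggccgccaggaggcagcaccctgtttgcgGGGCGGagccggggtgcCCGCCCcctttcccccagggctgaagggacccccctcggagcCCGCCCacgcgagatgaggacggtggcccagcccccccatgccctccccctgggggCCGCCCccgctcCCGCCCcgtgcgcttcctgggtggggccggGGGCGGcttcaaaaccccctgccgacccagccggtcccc

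The GC box letters occurred 10 times before INHBB, 6 times before TGFB1, 4 times before GREM1 and 2 times before BMP6, and 42.6% of 35116 RefSeq promoters of this length held them at least once. INHBA had none and only 1 CG dinucleotide in its 250 bases. It carried the TATA box letters, as did TGFB2 and TGFB3, and 10.7% of all promoters held those letters on either strand. The ratio of observed to expected CG was 0.919 before INHBB and 0.931 before GREM1, and the median of all promoters was 0.558. The segments that hold those bases had log2 ratios of 0.93 and 1.20 (replicates 1 and 2) at INHBB and -1.41 and -0.85 at GREM1. They are 196 kb and 199 kb long at INHBB and 20.3 kb and 68.6 kb at GREM1, so the values are not particular to the 250 bases. Any link between CG content and macroH2A1 was not tested. The palindromic SMAD sequence GTCTAGAC was in none of the 8 windows and in 0.182% of all promoters. These are letter matches in one window and say nothing of a factor's binding.

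INHBB, BMP6 and NOG were enriched, 3 of the 10 genes, where 19.2% of all measured coding genes and 17.4% of autosomal ones were called, and all 10 genes are autosomal. The same 3 had a mean log2 ratio above 0 in both replicates, against 22.8% of coding genes. TGFB1, TGFB3, BMP2 and GREM1, 4 of the 10, had 0 bases enriched in both replicates at once, where 69.5% of coding genes had none. TGFB1 and GREM1 had none in either replicate. In replicate 1 alone, 100% of BMP2 and 44.3% of TGFB3 were enriched. The median over the 10 genes was 0.11 from the replicate means, and -0.34 and 0.03 in replicates 1 and 2, beside -0.81 for all coding genes. The 10 genes were spread widely, from the 25.3rd percentile of coding genes for TGFB1 to the 97.8th for INHBB.

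**Figure D1:**
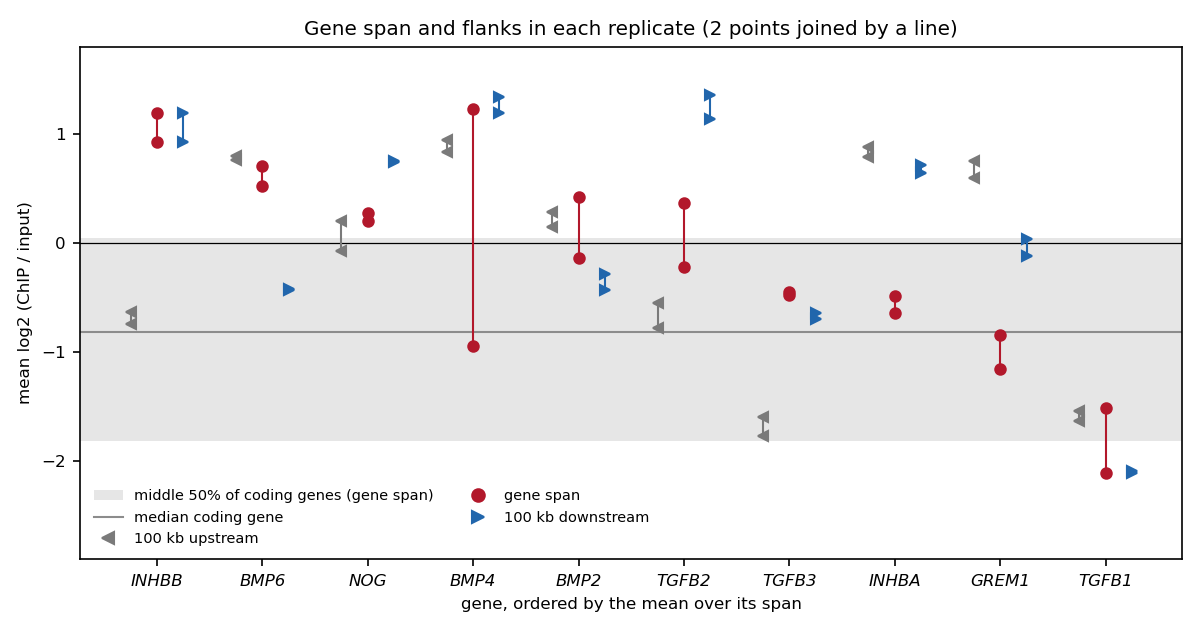
Mean log2 ratio of ChIP over input (vertical axis) over the span of each gene and over the 100 kb upstream and downstream, with both replicates as points joined by a line. The grey band holds the middle 50% of coding genes, from -1.82 to 0.05, around their median of -0.81. INHBA and GREM1 lie below both of their flanks in both replicates, and BMP4 is the gene whose replicates lie farthest apart.

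In order of level, INHBB came first, followed by BMP6, NOG, BMP4, BMP2, TGFB2, TGFB3, INHBA, GREM1 and TGFB1. Of the 9 pairs of neighbours in this order, 6 had replicate ranges that did not overlap. The other 3 pairs, NOG with BMP4, BMP4 with BMP2 and BMP2 with TGFB2, overlapped, so the middle of the order is not resolved. The open part is wider for BMP4. Its range, from -0.95 in replicate 1 to 1.23 in replicate 2, overlapped that of every other gene of the set except TGFB1. The ranges of TGFB3 and INHBA were separate but close, with nearest values of -0.48 in replicate 2 and -0.49 in replicate 1. Over the canonical transcript alone INHBA, at -1.37, came below GREM1. BMP4, BMP2 and TGFB2, 3 of the 10, had opposite signs in the replicates, as did 7.5% of all coding genes.

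TGFB2, INHBA, BMP4, GREM1 and NOG had a higher mean with 100 kb either side than over the gene alone. The other genes had a lower one. Over all coding genes the median was also higher for such windows, -0.53, than for genes, -0.81. Over the span plus 100 kb either side, 7 of the 10 had a mean log2 ratio above 0 in both replicates, against 17.5% of coding genes: TGFB2, INHBA, INHBB, BMP4, BMP6, GREM1 and NOG. In 5 of the 10, INHBA, INHBB, BMP4, BMP6 and NOG, at least 50% of the bases of this wider window were enriched in both replicates, against 20.3% of coding genes. Of the 20 flanks of 100 kb, 10 were above 0 in both replicates, against 29.1% of the flanks of all coding genes. In all, 8 windows and 6 genes stood at or above the 75th percentile of coding genes for the same measure. A window is as long as its gene plus a constant, and windows around long genes average more sequence.

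**Figure D2:**
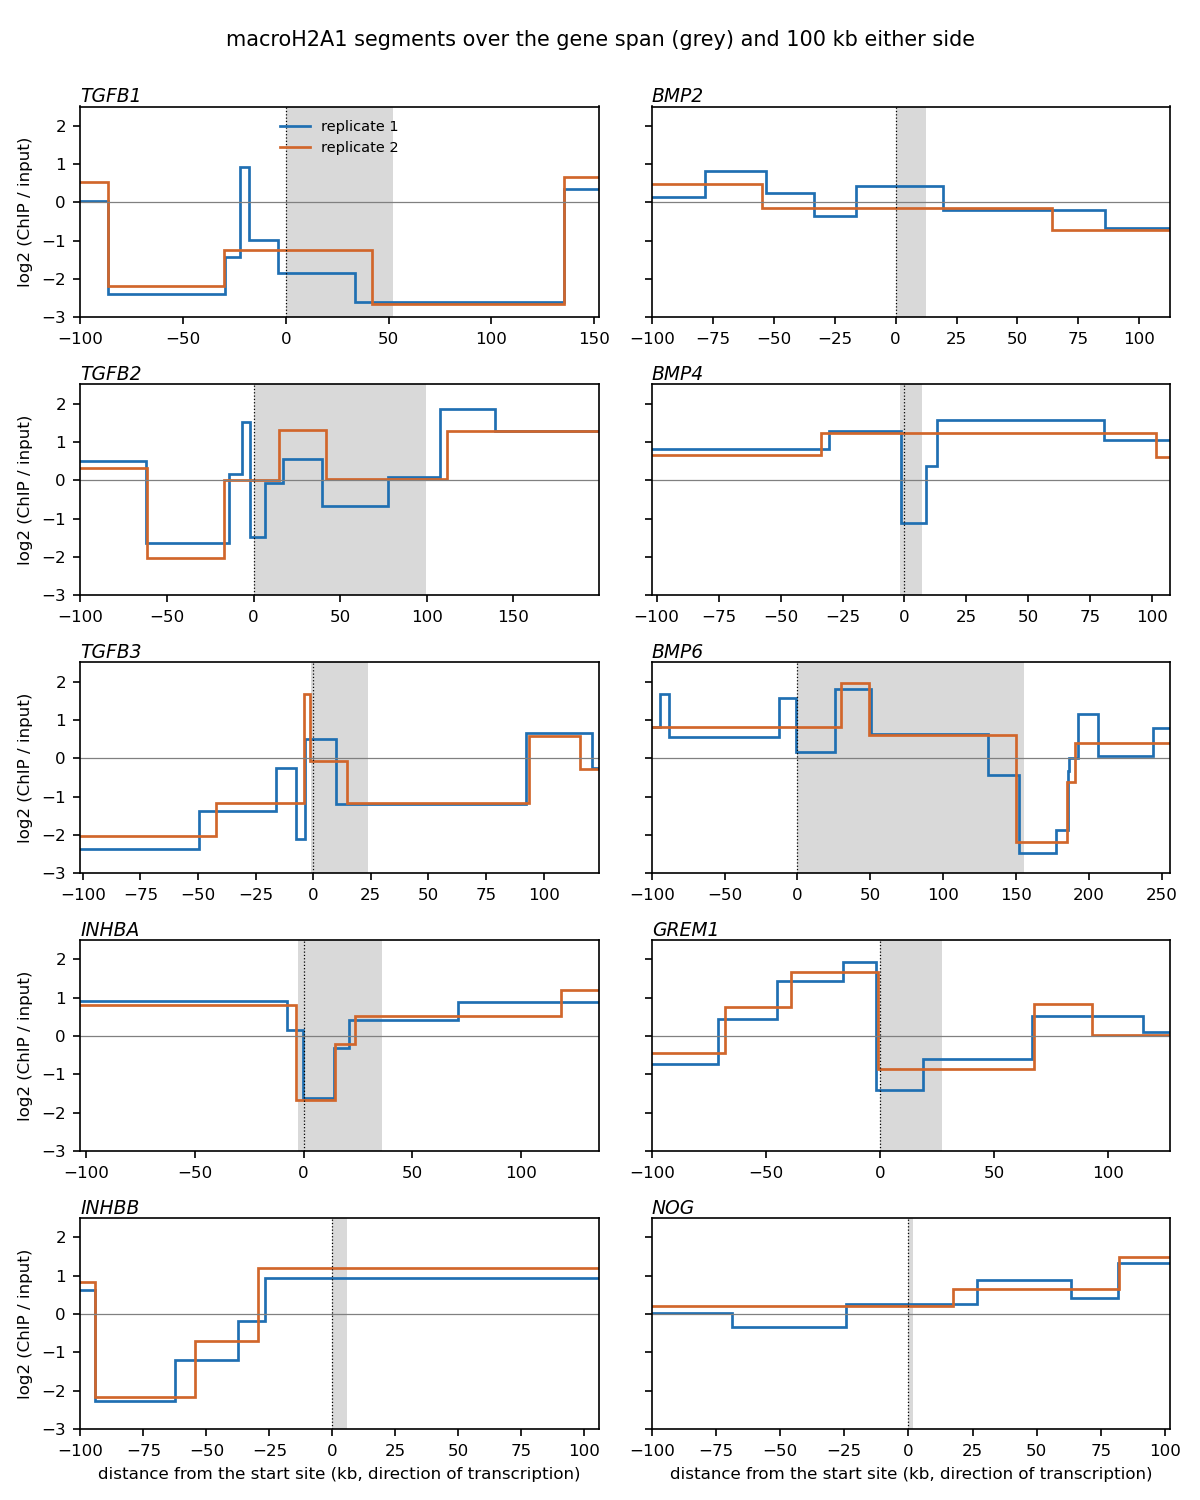
Log2 ratio of each segment (vertical axis) against the distance from the start site in kb, in the direction of transcription, for both replicates. Grey marks the gene span, the dotted line the start site, and gaps inside a segment are drawn at the segment's value. Steps down in the 10 kb before the start site are seen in both replicates at INHBA and GREM1, and a notch over BMP4 in replicate 1 alone. A drop of more than 1 log2 unit from the 10 kb before to the 10 kb after the start site, as at INHBA and GREM1, was found in both replicates at 24.0% of coding genes.

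TGFB1, the ligand most known for fibroblast activation, lay in the lowest chromatin of the set. Its span (chr19:41807492-41859827, 7 exons) had log2 ratios of -2.11 and -1.52 in replicates 1 and 2, a mean of -1.81 ± 0.42 (SD, n = 2). Both replicates placed the start site and all 7 exons in 1 low segment, at -1.84 and -1.23. The flanks were low as well, at -1.59 ± 0.06 upstream and -2.10 ± 0.01 downstream, and the window stood at the 1.99th percentile of coding genes. The window held 12 other coding genes, where the median coding gene had 4. Its nearest neighbours that do not overlap it were low too, with B9D2, 0.494 kb upstream, at -1.26 ± 0.04 and AXL, 39.8 kb downstream, at -2.63 ± 0.03. These are not separate measurements, since AXL lay in segments that also cover the downstream end of the TGFB1 span in both replicates. In replicate 2 B9D2 lay in the segment over the TGFB1 start site. Parts of both flanks share segments with the gene as well. Of the 12, CYP2S1, a cytochrome P450 gene at the far downstream end, was the 1 that was enriched, over 100% of its bases at 0.50 ± 0.21.

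TGFB2, a ligand with roles in heart and eye development, was a mosaic within one gene. Its span (chr1:218518678-218617961) averaged -0.22 in replicate 1 and 0.37 in replicate 2, so the sign of the mean is not settled, and 22.8% of its bases were enriched in both. Those bases formed 1 shared domain of 22.6 kb that began 16.7 kb after the start site and lay wholly in the first intron. The segment over it had a log2 ratio of 0.55 in replicate 1 and 1.32 in replicate 2. Replicate 1 had a segment of 8.90 kb at -1.47 over the start site, while replicate 2 had 1 segment of 31.6 kb at -0.004 there. Downstream the gene gave way to a strong domain, and the 100 kb after it were at 1.36 and 1.14 with 87.8% of bases enriched in both. The 100 kb before it were at -0.55 and -0.78. The neighbour RRP15, 7.35 kb upstream, was at -1.54 ± 0.17.

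TGFB3, the third TGF-beta, was below 0 in both replicates over its span (chr14:76424440-76449354), at -0.45 and -0.48 (mean -0.47 ± 0.02, SD, n = 2). The replicates agreed on the mean and differed in the detail. Replicate 1 had an enriched segment of 13.4 kb at 0.49 over the start site and the first exon, covering 44.3% of the gene, and replicate 2 had -0.07 there. Both had a short stretch just upstream in common, a shared domain of 2.21 kb that ended 1.19 kb before the start site, with 1.69 in replicate 2. The rest of the gene lay in segments at -1.20 and -1.17. IFT43, which overlaps TGFB3, was at -1.37 ± 0.07 and TTLL5, 3.02 kb downstream, at -0.82 ± 0.12.

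INHBA and INHBB encode the beta A and beta B subunits of activins, and their values lay far apart, INHBB above 0 and INHBA below 0 in both replicates. INHBB (chr2:121103712-121109379, 2 exons) had log2 ratios of 0.93 and 1.20, a mean of 1.06 ± 0.19 (SD, n = 2), and was enriched over 100% in both replicates. It lay whole inside segments of 196 kb and 199 kb, and the shared domain ran over 410 kb, from 26.9 kb before the start site. Because gene and downstream flank share 1 segment per replicate, they carry the same value and are not separate measurements. The upstream flank fell away to segments at -2.27 and -2.17, toward the GTPase gene RALB, 51.4 kb upstream at -1.42 ± 0.01.

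INHBA (chr7:41706766-41745432, 3 exons) had the reverse arrangement, a low gene start inside enriched surroundings. Its span was at -0.49 and -0.64 (mean -0.56 ± 0.11, SD, n = 2), with flanks at 0.84 ± 0.07 upstream and 0.68 ± 0.05 downstream. The segment over the start site had -1.62 in replicate 1, over 14.4 kb, and -1.68 in replicate 2, over 18.4 kb, and it reached exons 1, 2 and 3 in both. The enriched upstream segments, at 0.92 and 0.81, stopped 7.84 kb and 3.69 kb before the start site. Enrichment returned 21.0 kb and 23.6 kb after the start site, at 0.42 and 0.52. That part of the annotated span lies past the last exon of the canonical transcript. The window had no other coding gene, 86.8% of its bases were enriched in both replicates, and it stood at the 94.2nd percentile of coding genes, while the gene itself was at the 58.4th. The annotated span begins upstream of the canonical start site and runs on past the last canonical exon. Over the canonical transcript alone the mean was -1.37.

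Among the BMP ligands, BMP6 was enriched over much of a long gene. BMP6, a ligand with a role in the control of hepcidin by iron, spans 156 kb (chr6:7726332-7881961, 7 exons) and had log2 ratios of 0.53 and 0.71, a mean of 0.62 ± 0.13 (SD, n = 2). Enriched segments covered 67.3% of it in replicate 1 and 96.4% in replicate 2. The strongest part was in the first intron, at 1.82 between 25.8 and 50.7 kb after the start site in replicate 1, and at 1.95 between 29.6 and 49.1 kb in replicate 2. The replicates differed at the start site, where replicate 1 had 0.17, below the threshold on −log10 p, and replicate 2 had 0.80. The last exons, 5, 6 and 7, lay in a low segment at -2.47 and -2.19 in both. TXNDC5, a gene for a protein disulfide isomerase that overlaps this end, was low as well at -2.26 ± 0.09. The longer read-through model BLOC1S5-TXNDC5 was at -0.57 ± 0.06, above the median coding gene, with 25.4% of its bases enriched. The low segment began 152 kb after the start site in replicate 1 and 150 kb in replicate 2. In replicate 1 the enrichment had ended before it, at 131 kb, with -0.43 over exons 3 and 4.

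BMP4 showed the largest disagreement between replicates. BMP4, a ligand of lung and mesoderm development (chr14:54416454-54425479, 4 exons), had log2 ratios of -0.95 in replicate 1 and 1.23 in replicate 2 (mean 0.14 ± 1.54, SD, n = 2). Replicate 1 had a segment of 9.83 kb at -1.11 that held all 4 exons, with an enriched segment at 1.28 directly upstream. Downstream, 4.65 kb at 0.37 came before an enriched segment at 1.57. Replicate 2 had 1 segment of 135 kb at 1.23 over the same place. The surroundings agreed, with the upstream flank at 0.95 and 0.84 and the downstream flank at 1.34 and 1.20, and the window stood at the 99.2nd percentile of coding genes with 93.0% of its bases enriched. No other coding gene lay in it. The low value over BMP4 was thus seen in 1 of 2 replicates.

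BMP2, a ligand of bone and heart development (chr20:6748333-6760893, 3 exons), had values close to 0 on either side, 0.42 in replicate 1 and -0.14 in replicate 2 (mean 0.14 ± 0.40, SD, n = 2). Replicate 1 called 100% of it enriched in a segment of 35.5 kb, and replicate 2 called 0 in one of 119 kb. Its flanks were 0.22 ± 0.10 upstream and -0.35 ± 0.10 downstream, and no other coding gene lay within the window. The nearest shared domain ended 54.7 kb before its start site.

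**Figure D3:**
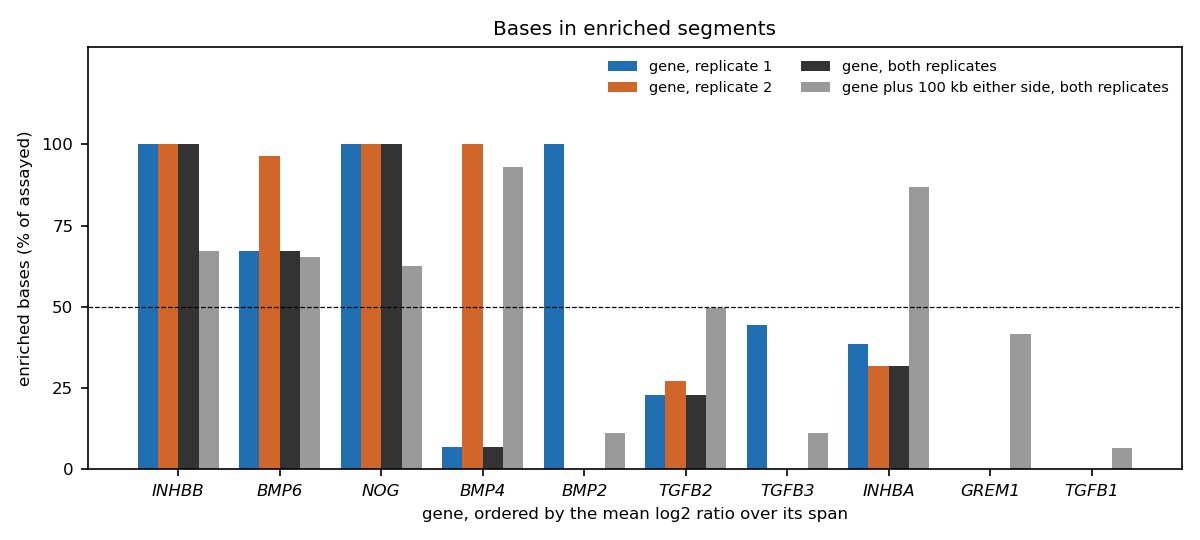
Percent of assayed bases in enriched segments (vertical axis) for each gene in replicate 1, in replicate 2 and in both, and for the gene plus 100 kb either side in both. The dashed line marks 50%. INHBB and NOG are at 100% in both replicates, and BMP4 and BMP2 change from one replicate to the other. For bases enriched in both, every gene except INHBB, BMP6 and NOG has a larger percent in its window than in its span. The rise is largest at BMP4.

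Of the antagonists, GREM1 was not enriched and NOG was. GREM1 (chr15:33010205-33037307, 2 exons) was at -1.16 and -0.85 (SD 0.22, n = 2) with 0 bases enriched in either replicate. Immediately upstream lay the highest segments of its window, at 1.92 in replicate 1 and 1.66 in replicate 2. They ended 1.56 kb and 0.902 kb before the start site, and the segment over the start site was at -1.41 and -0.85. Over the 10 kb before the start site the mean was 1.40 and 1.44, and over the 10 kb after it -1.41 and -0.85. The difference between them was -2.82 in replicate 1 and -2.28 in replicate 2 (after minus before). The shared upstream domain ran over 66.3 kb toward SCG5, a gene for a secretory granule protein 20.9 kb upstream, which was enriched over 84.6% at 0.82 ± 0.07. The overlapping model ARHGAP11A-SCG5 was enriched over 60.1% at 0.38 ± 0.14. Downstream, the formin gene FMN1 was at 0.07 ± 0.11.

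NOG (chr17:54671060-54672972, 1 exon) was enriched over 100% of its 1.91 kb in both replicates, at the modest levels of 0.27 and 0.20 (mean 0.24 ± 0.05, SD, n = 2). It lay within segments of 51.1 kb and 398 kb. The chromatin rose further downstream, where the 100 kb flank was at 0.75 ± 0.01 with 100% of its bases enriched, and upstream it was at -0.07 in replicate 1 and 0.20 in replicate 2. ANKFN1, 76.7 kb upstream, was enriched over 62.3% at 0.21 ± 0.01. In replicate 2 the segment of 398 kb over NOG also covers the upstream flank and part of ANKFN1, so these values are not separate measurements there.

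Where the start sites lay relative to enriched domains depended on the replicate. In 2 of the 10 genes, INHBB and NOG, the start site lay in a domain enriched in both replicates, against 18.2% of coding genes. In 5 others, TGFB3, INHBA, BMP4, BMP6 and GREM1, it lay outside and within 10 kb of one, against 26.7% of coding genes. The distances were 1.19, 7.84, 1.31, 0.827 and 1.56 kb in that order, and each of these domains lay upstream. In each replicate alone 4 start sites lay inside, with BMP4 and BMP6 added in replicate 2 and TGFB3 and BMP2 in replicate 1, where 23.9% and 22.4% of coding genes did. Outside and within 10 kb were 3 in replicate 2 and 5 in replicate 1, against 25.6% and 30.6%. A drop of more than 1 log2 unit from the 10 kb before to the 10 kb after the start site was found in both replicates at INHBA and GREM1, 2 of the 10, where 24.0% of coding genes had it. The share is thus close to the background, and these distances and this drop were chosen as measures after the profiles had been seen.

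The GC content of the windows ran from 39.5% at INHBA to 51.2% at TGFB1, with a median of 44.2% for coding genes. The window of INHBB had 50.5% and that of BMP4 40.0%. For macroH2A1 these windows stood at the 86.6th and 99.2nd percentiles of coding genes, and that of TGFB1 at the 1.99th. Any relation of GC content to the macroH2A1 level was not tested.

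Across the rest of the pathway, the counts of enriched genes differed by role, a difference that was not tested. Of 25 other ligands of the superfamily 13 were enriched, and of 14 other secreted antagonists 8 were. With the 10 genes above, that makes 15 of 33 ligands (14 of 32 on autosomes) and 9 of 16 antagonists (8 of 15 on autosomes), beside 19.2% of all coding genes. Of 42 receptors, SMAD proteins and their regulators, and transcriptional targets, 2 were enriched. In 37 of the 42, 0 bases were enriched in both replicates at once, beside 69.5% of all coding genes. The median log2 ratio was 0.16 for ligands, 0.31 for antagonists and -1.53 for those 42 genes. Some listed genes are chromosomal neighbours that share segments, such as GDF2 with GDF10, so the counts are not of independent loci.

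**Figure D4:**
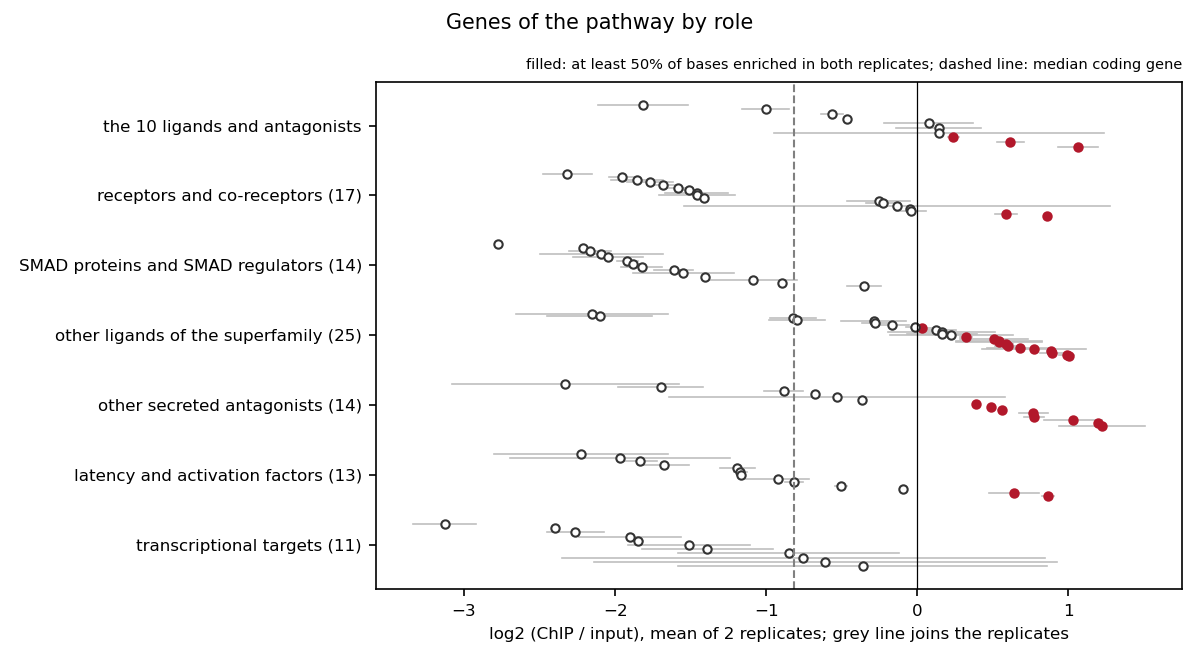
Mean log2 ratio of each gene (horizontal axis) by role in the pathway, with a grey line joining its 2 replicates. Filled points are enriched over at least 50% of their bases in both replicates, and the dashed line is the median coding gene at -0.81. Filled points make up 13 of 25 other ligands and 8 of 14 other antagonists, and none of the 14 SMAD genes or 11 targets.

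Among the other ligands, the highest were BMP10, a heart ligand, at 1.00 ± 0.02 (SD, n = 2), GDF6, a joint and skull ligand, at 0.99 ± 0.07, BMP15, an oocyte ligand on chromosome X, at 0.89 ± 0.11, BMP5 at 0.89 ± 0.04 and NODAL, a ligand of early axis formation, at 0.78 ± 0.49. The first 4 were enriched over 100% of their bases and NODAL over 63.6%. The lowest were AMH, the anti-Müllerian hormone, at -2.15 ± 0.72 and GDF11 at -2.10 ± 0.49. Among the antagonists, SOST, the bone inhibitor sclerostin, was at 1.22 ± 0.40, and the chordin family members CHRDL1 (on chromosome X), CHRDL2 and CHRD were at 1.20 ± 0.03, 1.03 ± 0.27 and 0.77 ± 0.14. DAND5 was at 0.77 ± 0.10, and all 5 were enriched over 100%. FST, which encodes the activin antagonist follistatin, was lowest at -2.33 ± 1.06, followed by TWSG1 at -1.70 ± 0.40.

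Of the 17 receptor genes, 14 had 0 bases enriched in both replicates at once, where 69.5% of all coding genes had none and 19.2% were enriched. The 14 include BAMBI, which was enriched over 100% in replicate 2 alone. The 2 enriched were AMHR2, the receptor of anti-Müllerian hormone, at 0.86 ± 0.01 and BMPR1B at 0.59 ± 0.10, enriched over 100% and 69.7%. The lowest were the co-receptor genes RGMB, at -2.32 ± 0.23, and ENG, which encodes endoglin, at -1.95 ± 0.12. Of the 14 genes for SMAD proteins and their regulators 13 had 0 bases enriched in both replicates at once. The mean log2 ratio of all 14 was below 0 in both replicates. The lowest of these were SKI, a SMAD repressor, at -2.78 ± 0.003 and SMURF2, a ubiquitin ligase, at -2.21 ± 0.03. Of the 13 genes for latency and activation of TGF-beta, 2 were enriched. These were ITGB6, a subunit of an epithelial integrin, at 0.86 ± 0.06 and NRROS, a leukocyte anchor of latent TGF-beta, at 0.64 ± 0.23. THBS1, at -2.23 ± 0.81, and FURIN, the protease that cleaves the precursors, at -1.97 ± 1.03, were the lowest. None of the 11 transcriptional targets was enriched, and COL1A1, a collagen gene, was the lowest at -3.13 ± 0.30.

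Some genes changed wholly from one replicate to the other. BAMBI, FSTL3, CCN2, ID1 and ID3, 5 of the 94 other genes, had 0 bases enriched in replicate 1 and 100% in replicate 2, where 2.4% of coding genes did and none of the 10 ligand and antagonist genes above. The reverse was found at BMP2, 1 of those 10, and at MSTN, the myostatin gene, 1 of the 94, where 1.12% of coding genes had it. These other genes are named here after their values were seen. CCN2 had -2.35 in replicate 1 and 0.84 in replicate 2, and ID3, an inhibitor of DNA-binding factors and a BMP target, had -2.14 and 0.92. The segment over the start site was 6.23 kb long in replicate 1 and 233 kb in replicate 2 at CCN2, and 10.1 kb and 164 kb at ID3. At BAMBI, a pseudoreceptor, the lengths were 6.65 kb and 768 kb. In replicates 1 and 2 they were 8.83 kb and 43.2 kb at FSTL3, 6.28 kb and 81.6 kb at ID1, and 287 kb and 55.5 kb at MSTN. At CCN2, ID3, BAMBI, FSTL3, ID1 and MSTN the lower value came from the shorter segment, and at BMP2 from the longer one. The part of segment length in these differences was not tested.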

How the data were processed

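MacroH2A1 ChIP-seq of IMR90 cells comprised 2 ChIP replicates and 2 inputs. The submitters' processing notes name CASAVA 1.7 and hg19. The aligner, duplicate handling, segmentation program and scaling are unstated in the labels and headers. The authors deposited 1 segmentation per replicate (not pooled), giving each segment a log2 ratio (ChIP over input) and a −log10 p-value. Base 2 was inferred: the linear ratios it gives had means of 1.01 and 0.995 in the replicates. No source says which input each ratio used. The last segments end within the GRCh37 lengths on all 23 chromosomes used.

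Values were base-weighted means over segment blocks. Annotation was GENCODE release 44 mapped to GRCh37, with 20098 coding genes on chromosomes 1 to 22 and X. Those assayed over 50% or more in both replicates, 19517, count as measured. The start site is that of the canonical transcript. Shared domains are bases enriched in both replicates, joined across 1 kb. Python 3.11.15 with numpy 2.4.6 and pandas 2.3.3 was used. The interval functions were tested on simulated data (0 mismatches in 500 intervals).

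Alternatives were stricter thresholds, whole segments, other spans and flanks, and single replicates. Genes named besides the 10 were the nearest neighbours on each side or those with another call, and per list up to 5 enriched genes and the 2 lowest. The value of 1 gene that this rule names is not reported here. The genes, lists and thresholds were chosen with earlier results of these data known. No set test or chance test was made.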

Additional observations from a re-analysis of the deposited data

How the results depend on the processing

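The count of enriched genes among the 10 was 2 or 3 under all planned settings of threshold, block and transcript span, at 3 in the main setting. NOG was lost with a log2 ratio above 0.5, and BMP6 with 80% of bases required or with a 5-kb window at the start site. Over the span plus 100 kb either side it was 5 genes, and 7 genes were above 0 in both replicates where the gene spans gave 3. With 1 replicate left out, 4 genes were enriched, gaining BMP4 in replicate 2 alone and BMP2 in replicate 1 alone, and the number above 0 ran from 4 to 5. The median log2 ratio of the 10 genes was 0.0314 without replicate 1 and -0.34 without replicate 2, and from 0.02 to 0.22 under the other settings. The other pathway genes enriched numbered 25, from 17 to 29 under other settings and 29 to 34 with 1 replicate left out. The 10 flanks above 0 became 11 with either replicate left out. Windows of 5 kb at the start site, a setting chosen after seeing the data like the others for this measure, left 1 gene with a drop of more than 1 (GREM1), where 18.6% of coding genes had it. Leaving out a replicate gave from 2 (26.4% of coding genes) to 5 (31.5%). Start sites inside an enriched domain rose from 2 to 4 with either replicate left out, and those outside and within 10 kb ran from 3 to 5, also chosen after seeing the data. Of 40 values of single genes under another span or a median, 26 moved by less than the SD between replicates and 14 by more, and 6 changed sign, in 5 genes (BMP2, GREM1, INHBA, TGFB2 and TGFB3). GREM1 and INHBA changed sign only with their flanks included. Values over whole segments matched the main ones, and single replicates are given in the text above. The cause of these changes was not tested.

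No paired analysis was possible because the inputs enter only as the denominator of the authors' ratio and there is 1 group of ChIP samples. The depth is unknown, the inferred log base is not stated by any source, and there is no second group to test against.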
